A study of Mus musculus with 24 samples.

Results

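The genes described are 7 named components and regulators of the complement system: the 3 chains of C1q (C1qa, C1qb and C1qc), the components C4b and C3, the receptor C3ar1 and the inhibitor Serping1. They were chosen by their symbols. 6 of the 7, among 14769 genes with a value in any of 4 tables of log2 CPM (read counts scaled to the library total, on a log2 scale), had values in all 4, and C3 is not analysed here. The libraries were made from ribosome-depleted total RNA of mouse cortex, 24 libraries from 12 animals. The study compared wild-type mice (WT) with ciRS-7 knockout mice (KO), which lack the circular RNA made from the Cdr1as locus, after transient middle cerebral artery occlusion (tMCAo), a model of ischemic stroke in which a filament blocks a brain artery and is then withdrawn. The 4 groups hold 6 libraries each and are named by side and genotype (PI or CL, WT or KO), where CL and PI are the labels' names for the 2 cortex samples taken from each animal. Every animal was a male of 3 to 4 months with 1 h of occlusion and 1 day of reperfusion, and the labels give animals of both genotypes 1 strain name, C57BL/6N-Cdr1asem1Nikr. There were no animals without surgery in these groups, so CL is the sample of an operated animal.

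Complement is a cascade of plasma and tissue proteins that tags cells and debris for removal and attracts leukocytes. In the classical pathway C1q binds a target, the proteases C1r and C1s that it carries cut C4 and C2, and the resulting enzyme cuts C3, whose fragments mark the target or act on receptors such as C3aR and CR3. Serping1 encodes the C1 inhibitor, which inactivates C1r, C1s and the lectin pathway proteases. In the brain microglia are the main source of C1q, and astrocytes are a known source of C4.

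The 3 C1q genes lie side by side on chromosome 4, all on the minus strand (GENCODE M21, GRCm38): C1qb at chr4:136880129-136886187, C1qc at chr4:136889804-136893065 and C1qa at chr4:136895917-136898803. C4b lies at chr17:34728380-34743882, C3ar1 at chr6:122847138-122856161 and Serping1 at chr2:84765387-84775444, also on the minus strand, and all 6 are protein-coding genes that overlap no other annotated gene. Because all 3 C1q genes were higher in PI than in CL, the promoters of C1qb and C1qc are shown. That of C3ar1 is added, as C3ar1 had the largest such difference of the 6 genes in WT. Each runs 5′ to 3′ on the gene's strand from 250 bases before the start to 50 after it, from RefSeq (GRCm38.p6), with motif matches in capitals. C1qb is chr4:136886151-136886450, C1qc is chr4:136892865-136893164 and C3ar1 is chr6:122856108-122856407, all on the minus strand. C1qa, C4b and Serping1 had no entry.
C1qb: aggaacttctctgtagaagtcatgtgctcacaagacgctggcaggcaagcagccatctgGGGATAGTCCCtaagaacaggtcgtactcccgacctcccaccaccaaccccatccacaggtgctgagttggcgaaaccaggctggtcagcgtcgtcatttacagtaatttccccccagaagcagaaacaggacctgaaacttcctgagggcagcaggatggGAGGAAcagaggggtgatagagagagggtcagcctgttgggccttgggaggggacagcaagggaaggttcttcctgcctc
C1qc: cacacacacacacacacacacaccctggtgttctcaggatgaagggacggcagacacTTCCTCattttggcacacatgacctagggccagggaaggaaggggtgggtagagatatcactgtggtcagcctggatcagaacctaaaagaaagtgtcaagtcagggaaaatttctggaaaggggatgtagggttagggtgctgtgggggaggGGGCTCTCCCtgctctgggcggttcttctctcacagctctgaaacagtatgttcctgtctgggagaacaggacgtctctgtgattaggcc
C3ar1: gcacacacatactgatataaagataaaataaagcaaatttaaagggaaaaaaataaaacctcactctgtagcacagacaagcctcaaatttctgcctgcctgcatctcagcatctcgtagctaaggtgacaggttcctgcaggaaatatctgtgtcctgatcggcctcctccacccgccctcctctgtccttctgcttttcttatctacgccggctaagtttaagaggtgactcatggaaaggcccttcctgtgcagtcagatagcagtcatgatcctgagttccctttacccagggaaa
Motifs were searched on both strands. The letters GAGGAA, a core bound by PU.1, the myeloid transcription factor, were found 30 bases before the start of C1qb and, on the other strand (TTCCTC), 193 bases before that of C1qc. These letters occur in 28.3% of 32851 promoters of this length. An NF-kB type motif (GGGA and CC with any 4 bases between them) occurs in 20.7% of the promoters. It was found in C1qb as a pair of overlapping matches 191 and 190 bases before the start, the latter on the other strand. In C1qc it was found on the other strand, 40 bases before the start. The GENCODE gene C1qc begins further upstream, at base 136893065, so that match lies within the gene as GENCODE draws it. The letters TTCNNNGAA (STAT, 8.3% of promoters) and TTGCNNAA (C/EBP, 10.8%), and GAAA repeated after any 2 bases (IRF, 3.44%), were not in these 3 windows, and the C3ar1 window held none of the 5 motifs. A match is a description of the letters.

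In the deposited tables the outer values of each group had been drawn in to the group's quartiles, so that the 2 lowest of 6 are equal and so are the 2 highest. Lowest and highest values below are these deposited ones, and groups are said to overlap or not on that basis. Differences are of the mean of the 4 inner values of each group, recovered from the quartiles, and an error after ± is the standard error (SE). A gene was called changed at an adjusted p under 0.05 in a moderated trimmed-mean test (limma's empirical Bayes step, two-sided, Benjamini-Hochberg adjustment over all genes of the table). The effective depth of the libraries, read from the steps between low values, was 3.72 to 10.5 megareads, median 6.90. The shallowest, CL KO 6, also stood at the edge of its group in 90.4% and 90.5% of genes in its 2 tables. The row named Cdr1as, the targeted RNA, stood between 11.35 and 11.9 log2 CPM in the WT libraries and below 0 in all KO libraries, at most -2.59. The 7 cortex markers looked for were all present, with summed levels of 877 to 1158 CPM in the tables that pair PI with CL, and the 6 hepatocyte markers were listed in no table.

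Levels can be compared between genes only per length, here as log2 CPM per kilobase of annotated exon (1.04 kb for C1qa, 5.70 kb for C4b). In PI WT the order was C1qb at 4.22, C1qa at 3.70, C1qc at 3.04, C4b at 2.18, Serping1 at 1.13 and C3ar1 at 1.07. Neighbouring genes did not overlap between libraries, except Serping1 and C3ar1. In CL WT the first 3 kept this order, at 3.36, 3.02 and 2.5, then C4b at 1.04 and Serping1 at 0.47 overlapped, and C3ar1 was lowest at -0.86. In PI KO the order was that of PI WT, again with Serping1 and C3ar1 overlapping. In CL KO Serping1, at 0.64, stood above C4b, at 0.57, with overlap, and C3ar1 was at -0.26. The 3 chains form 1 protein in equal amounts, and C1qb stood above C1qc per kilobase in all 4 groups. In CL their log2 CPM before division by length were alike, with a median of C1qb minus C1qc of 0.02 in WT and 0.06 in KO. Their order there thus rests on the annotated exon lengths, 1.09 kb for C1qb and 1.93 kb for C1qc.

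**Figure D1:**
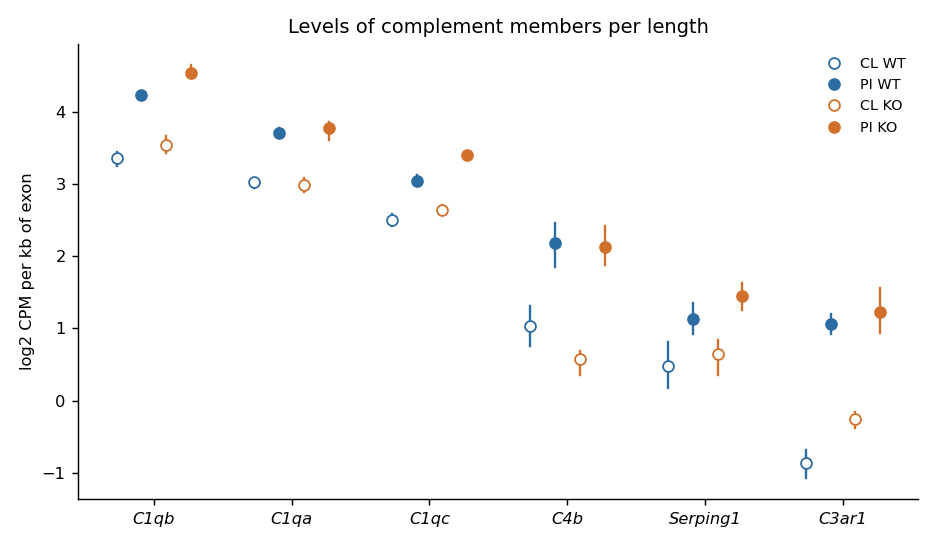
Level of each of the 6 genes per length (log2 CPM per kilobase of annotated exon) in the 4 groups, from the tables that pair PI with CL. The 3 C1q chains are highest in all 4 groups, and C3ar1 is lowest, at -0.86 in CL WT and 1.07 in PI WT.

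The first question was how complement genes differed between the PI and CL cortex of the same animals. In WT 5 of the 6 genes rose in PI: C1qa, C1qb, C1qc, C4b and C3ar1. Over all 14489 genes of the WT table, the share called higher was 5.20%. In KO all 6 rose, where 5.11% of 14338 genes were called higher. The median difference of the 6 genes was 0.78 in WT and 0.90 in KO on the log2 scale, beside 0.01 and 0.00 for the median gene. In both genotypes the deposited values of PI and CL did not overlap for any of the 6 genes. It follows that the deposited value was higher in PI in 6 of 6 animals. The outermost values before they were drawn in are not known. Values without overlap and higher in PI were found for 16.5% of all genes in WT and 17.1% in KO. These are bulk tissue samples, in which a change in the number of cells of a type cannot be told apart from a change in RNA per cell.

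The recognition molecule C1q was higher in PI in all 3 of its chains. C1qa had 7.99, 8.61 and 8.72 CPM (lowest, median and highest library) in CL WT and 12.9, 13.6 and 14.2 CPM in PI WT. In KO it had 7.67, 8.19 and 8.83 CPM in CL and 12.7, 14.8 and 15.1 CPM in PI. Every deposited PI value was therefore above every deposited CL value. The difference was 0.69 ± 0.10 in WT (log2, adjusted p = 0.00119, 1.61-fold) and 0.79 ± 0.13 in KO (adjusted p = 0.00278, 1.72-fold).

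C1qb had the highest values of the chains. It had 10.3, 11.3 and 11.9 CPM in CL WT and 19.9, 20.3 and 20.7 CPM in PI WT. In KO the values were 11.7, 12.4 and 13.8 CPM in CL and 24.04, 24.6 and 27.3 CPM in PI. The groups were far apart in both genotypes, by 0.87 ± 0.10 in WT (log2, adjusted p = 0.000150, 1.82-fold) and 1.01 ± 0.11 in KO (adjusted p = 0.000201, 2.01-fold).

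C1qc had the smallest difference of the chains in both genotypes. In KO it was close to that of C1qa, and the order of the chains was not tested. C1qc had 10.3, 11.0 and 11.6 CPM in CL WT and 15.1, 16.0 and 16.8 CPM in PI WT. In KO it had 11.7, 11.9 and 12.6 CPM in CL and 19.4, 20.6 and 20.9 CPM in PI. No deposited PI value fell within the CL range in either genotype. The difference was 0.54 ± 0.10 in WT (log2, adjusted p = 0.00419, 1.45-fold) and 0.75 ± 0.09 in KO (adjusted p = 0.000448, 1.69-fold).

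Within a library the chains can be set against each other without regard to scaling. The values are the deposited ones, drawn in to the group's quartiles gene by gene. The true differences within single libraries are therefore not all known. C1qb minus C1qc, as a difference of log2 CPM, had a median of 0.02 in CL WT (-0.17 to 0.20) and 0.34 in PI WT (0.26 to 0.45). In KO the medians were 0.06 in CL (-0.10 to 0.24) and 0.33 in PI (0.23 to 0.39). The range of these deposited differences in PI lay above that in CL in WT and overlapped it at the edge in KO. C1qc minus C1qa moved the other way in WT, with medians of 0.40 in CL and 0.23 in PI, and stood at 0.56 and 0.50 in KO. These differences between chains were not tested.

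**Figure D2:**
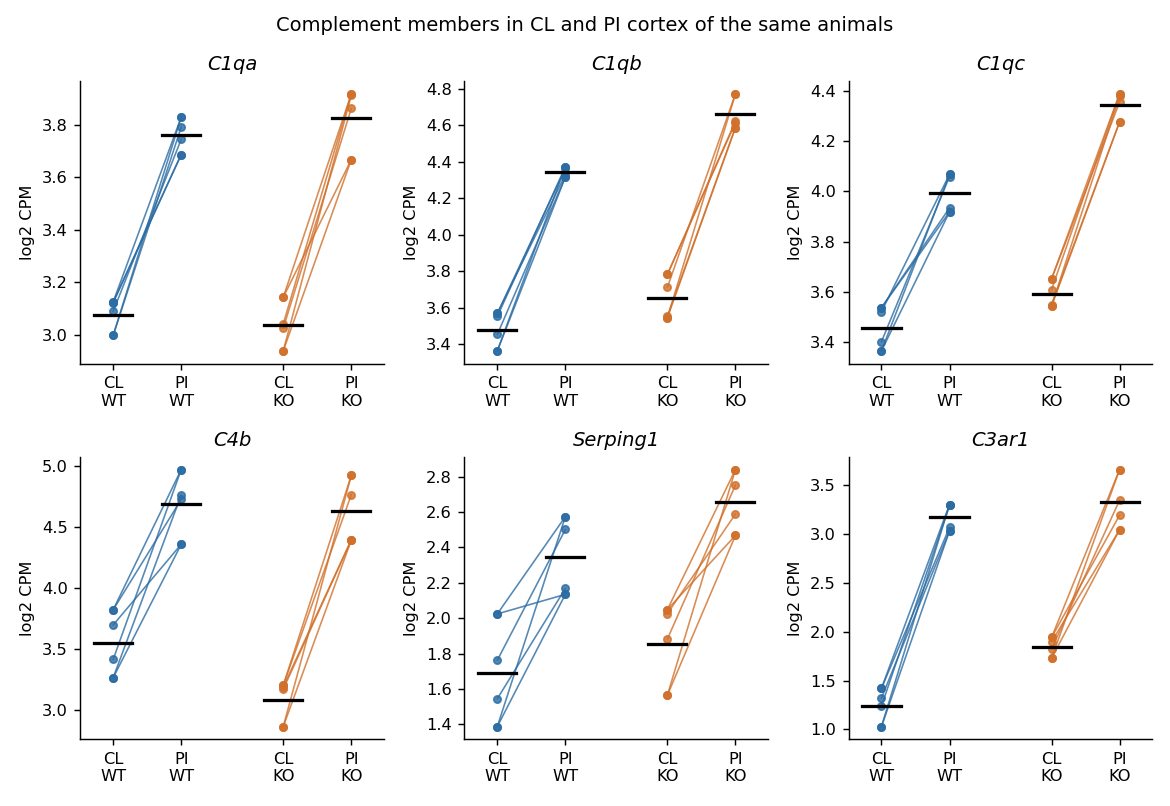
Deposited log2 CPM of each gene in the CL and PI library of each animal, joined by a line per animal, for WT and KO in their separate tables. All lines rise from CL to PI for all 6 genes, with the longest for C3ar1 and C4b.

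C4b encodes C4, the component that C1s cuts after C1q binding. It had 9.61, 11.8 and 14.1 CPM in CL WT and 20.5, 26.8 and 31.4 CPM in PI WT. In KO it had 7.28, 9.06 and 9.20 CPM in CL and 21.0, 24.1 and 30.3 CPM in PI. The spread within the PI groups was wider than for the C1q chains, and still no deposited PI value reached down to a deposited CL value. The difference was 1.14 ± 0.22 in WT (log2, adjusted p = 0.00572, 2.21-fold) and 1.55 ± 0.18 in KO (adjusted p = 0.000302, 2.93-fold). C4a is a near-identical neighbour of C4b. How reads shared by such copies were assigned is not given in the sources used here, so the level of C4b is uncertain to that extent.

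C3ar1 encodes the receptor for C3a, the small fragment released when C3 is cut. It had 2.04, 2.43 and 2.68 CPM in CL WT and 8.18, 9.10 and 9.86 CPM in PI WT. In KO it had 3.32, 3.63 and 3.84 CPM in CL and 8.25, 9.66 and 12.6 CPM in PI. The lowest deposited PI value was above the highest deposited CL value by a wide margin in both genotypes. The difference was 1.93 ± 0.18 in WT (log2, adjusted p = 5.31e-05, 3.81-fold) and 1.48 ± 0.21 in KO (adjusted p = 0.000872, 2.79-fold). Multiplied by depth, the deposited values stand for 15.6 to 18.5 reads in CL WT and 51.8 to 96.7 in PI WT. Outer values are drawn in, so these are not the read numbers of single libraries.

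Serping1, the inhibitor, changed by less than its spread allowed to be called in WT. It had 2.62, 3.16 and 4.07 CPM in CL WT and 4.39, 5.08 and 5.95 CPM in PI WT. The WT difference was 0.66 ± 0.24 (log2, unadjusted p = 0.0168, adjusted p = 0.106 in the moderated trimmed-mean test, 1.58-fold). In KO it had 2.96, 3.88 and 4.14 CPM in CL and 5.53, 6.37 and 7.16 CPM in PI, a difference of 0.80 ± 0.21 (log2, adjusted p = 0.0326, 1.74-fold). The KO call sits close to the threshold. With the animal as a block the adjusted p was 0.0548. Leaving out 1 library at a time gave adjusted p from 0.0279 to 0.0852, and the call was lost without CL KO 1, 3 or 5 or without PI KO 1, 2, 3 or 5. Multiplied by depth, the deposited Serping1 values in CL KO stand for 11.0 to 41.8 reads, and 11.0 was the lowest such number of the 6 genes. The outer values are drawn in, so the reads of those libraries are not known. Without the shallow library CL KO 6 the difference was 0.67 (adjusted p = 0.0425).

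The other genes of the pathway were taken from a list of 53, of which 22 were listed in at least 1 table. In WT 5 of these 22 rose in PI and 1 fell, and in KO 4 rose and 1 fell, beside the 5.20% and 5.11% called higher and 5.40% and 4.94% called lower over all genes. The genes called higher include C5ar1, which is not listed in the table of the CL groups, so these counts are a description. The median difference of the 22 was 0.11 in WT and -0.03 in KO. Of the proteases, C1ra, which encodes C1r, had 4.64 to 5.25 CPM in CL WT and 8.002 to 8.98 CPM in PI WT and rose by 0.80 ± 0.13 (log2, adjusted p = 0.00199). In KO its difference was 0.49 (adjusted p = 0.0861), and it was called without CL KO 6. C1s1 and Masp1 were not called in either genotype, at 0.64 and 0.12 in WT and 0.33 and 0.09 in KO. Cfp, which encodes properdin and was the 1 alternative pathway gene listed, differed by 0.05 in WT and -0.06 in KO without a call. None of the 7 terminal pathway genes was listed. C1ra and C1s1 each have a near-identical copy (C1rb and C1s2), so their values carry the same uncertainty as C4b.

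Itgam and Itgb2, the receptor genes listed in all 4 tables, rose in both genotypes. C5ar1 is listed only in the 3 tables that hold PI libraries, where it is high, so its listing depends on the PI values and its rise is a description. C5ar1, the receptor for C5a, had 0.60 to 1.24 CPM in CL WT and 3.38 to 6.00 CPM in PI WT, and 0.85 to 1.76 CPM in CL KO and 4.71 to 6.18 CPM in PI KO. Its difference was 2.24 in WT and 2.17 in KO (log2), and its deposited CL WT values, multiplied by depth, stand for 4.8 to 8.9 reads. Itgam and Itgb2 encode the chains of CR3, a receptor for a C3 fragment that myeloid cells carry. Itgam rose by 1.08 in WT (adjusted p = 0.000108) and 0.95 in KO (adjusted p = 0.00212), and Itgb2 by 1.34 (adjusted p = 0.00182) and 1.08 (adjusted p = 0.00614).

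Regulators made up 15 of the other genes listed. Sez6l2, a neuronal protein with complement control domains, fell from 158 to 163 CPM in CL WT to 112 to 124 CPM in PI WT, a difference of -0.44 (adjusted p = 0.000564), and by 0.42 in KO (adjusted p = 0.00119). Its relative Sez6 had 52.2 to 102 CPM in CL KO and 40.2 to 43.7 CPM in PI KO, a difference of -0.92 (adjusted p = 0.0503, and 0.0421 with the animal as a block). In WT Sez6 had 45.5 to 63.9 CPM in CL and 49.3 to 59.4 CPM in PI, with overlap and without a call. Beside the fall of Sez6l2, 3 of 11 neuron markers fell in both genotypes, Nefl (-0.41 in WT and -0.31 in KO), Snap25 (-0.30 and -0.31) and Syt1 (-0.25 and -0.27), and Gad2 rose in KO (0.38). Of all genes 5.40% were called lower in WT and 4.94% in KO, and 5.11% were called higher in KO. The summed level of the 11 was 8740 to 9319 CPM in CL WT and 7548 to 8364 CPM in PI WT, and 8621 to 9014 CPM in CL KO and 7408 to 8137 CPM in PI KO, and its part was not tested. Of the remaining regulators, the ones drawn in the plot of PI against CL were not called.

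**Figure D3:**
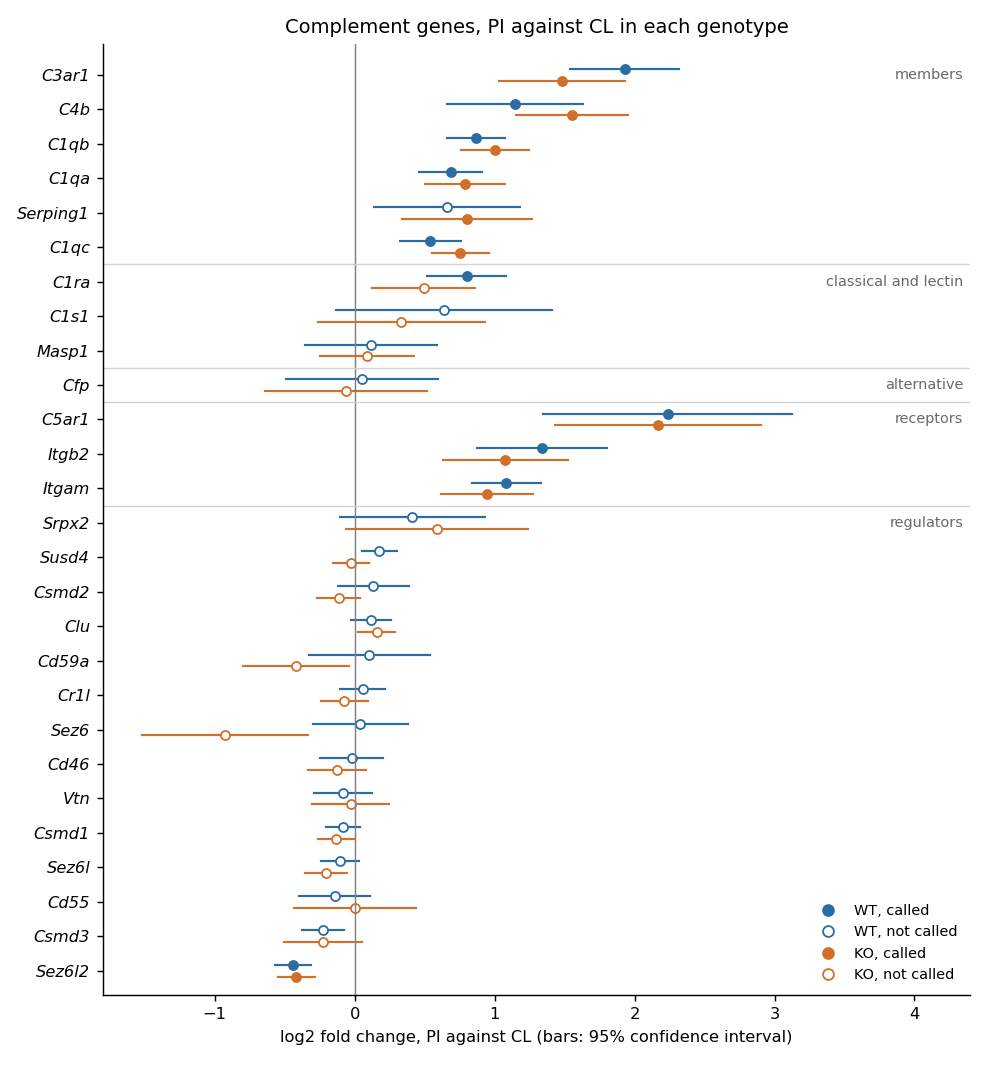
Difference between PI and CL (log2, mean of the 4 inner values, bars are unadjusted 95% confidence intervals) for the 6 genes and other complement genes, in WT and KO, grouped by role, with filled points for called genes. The members and the receptors lie to the right of 0 in both genotypes, with C5ar1, which is listed only in the tables that hold PI libraries, at 2.24 in WT, and the regulators drawn below them run from -0.92 (Sez6 in KO) to 0.59 (Srpx2 in KO).

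Markers of cells that could carry these genes were measured beside them. Over all genes 5.20% were called higher and 5.40% lower in PI in WT, and 5.11% and 4.94% in KO. All 12 microglia markers were listed. In WT 4 of them rose in PI (Aif1, Olfml3, Tyrobp, Cx3cr1) and 3 fell (P2ry12, Gpr34, Siglech), and in KO 3 rose, among them Tyrobp and Cx3cr1, and 1 fell (P2ry12). Their summed level was 186 to 197 CPM in CL WT, 185 to 212 CPM in PI WT, 193 to 219 CPM in CL KO and 207 to 251 CPM in PI KO. Of 6 border macrophage markers 4 were listed (not Pf4 and Ms4a7), and Mrc1 and F13a1 rose in both genotypes. Lyve1 was also called higher in both, but it is listed only in the tables that hold PI libraries. Their sum was 14.2 to 16.2 CPM in CL WT against 21.6 to 28.1 CPM in PI WT, and 14.9 to 17.2 CPM in CL KO against 23.1 to 29.7 CPM in PI KO. Of 10 astrocyte markers 2 rose in both genotypes (Gfap and Aqp4), while 3 fell in WT (Slc1a2, Gjb6, Gja1) and 1 in KO (Gja1). Gfap rose by 1.88 in WT (adjusted p = 1.87e-06) and 2.19 in KO (adjusted p = 8.47e-06) in the moderated trimmed-mean test. The sum of the 10 astrocyte markers was 7666 to 8073 CPM in CL WT and 6835 to 7267 CPM in PI WT. In KO that sum was 7678 to 8174 CPM in CL and 6735 to 7347 CPM in PI. None of 12 neutrophil and monocyte markers was listed in the tables that pair PI with CL. The part of these cells in the complement changes was not tested.

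The next question was whether the knockout differed from wild type within a side. In PI none of the 6 genes was called, where 0.0208% of 14452 genes were (3 genes). In CL none of the 6 was called, where 0.0279% of 14323 were (4 genes). At an unadjusted p under 0.05, 2 of the 6 passed in each side, beside 5.75% and 5.73% of all genes. Each group's libraries serve in 2 of these comparisons, so the differences between genotypes and between sides share libraries. The labels number the animals 1 to 6 within each genotype, and a KO and a WT animal share only a number.

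In PI the chains C1qb and C1qc had higher values in KO. In the table of the PI groups C1qb had 20.3, 20.8 and 21.1 CPM (lowest, median and highest) in WT and 24.7, 25.1 and 27.9 CPM in KO, and C1qc had 15.4, 16.3 and 17.1 CPM in WT and 19.8, 21.1 and 21.4 CPM in KO. Neither gene's groups overlapped, which holds for 14.1% of all genes in the PI table, 6.94% with higher values in KO. The differences were 0.32 (95% confidence interval, unadjusted, 0.13 to 0.52, unadjusted p = 0.00375) for C1qb and 0.35 (0.16 to 0.55, unadjusted p = 0.0021) for C1qc, each with an adjusted p of 0.768 in the moderated trimmed-mean test. C1qa had 13.1, 13.9 and 14.5 CPM in WT and 13, 15.2 and 15.5 CPM in KO. Its groups overlapped, and the difference was 0.07 (-0.19 to 0.33). Whether the genotype difference of C1qa differs from that of the other two chains was not tested. Beside this, 11 of 12 microglia markers had a difference above 0 in PI KO, none called. Their median was 0.25, beside -0.005 for the median gene. The markers were measured in the same libraries, so their signs are not independent. Their sum was 212 to 258 CPM in KO against 188 to 216 CPM in WT, and the part of microglia was not tested. Of the neutrophil and monocyte markers S100a8 and S100a9 were listed in this table, with a sum of 2.20 to 4.12 CPM in PI WT and 3.39 to 9.32 CPM in PI KO.

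The other genes did not separate in PI. C4b had 20.9, 27.3 and 32.0 CPM in WT and 21.5, 24.7 and 31.0 CPM in KO, a difference of -0.05 (-0.53 to 0.43). C3ar1 had 8.34, 9.25 and 10.1 CPM in WT and 8.44, 9.87 and 12.95 CPM in KO, a difference of 0.16 (-0.27 to 0.59). Serping1 had 4.45, 5.19 and 6.07 CPM in WT and 5.66, 6.52 and 7.32 CPM in KO, a difference of 0.32 (-0.10 to 0.73). The groups overlapped for all 3, and their intervals reach beyond 0.4 on the log2 scale, so a higher level in KO by that much lies within them.

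In CL the genes with the widest gap were C4b and C3ar1, in opposite directions. In the table of the CL groups C4b had 9.39, 11.5 and 13.8 CPM in WT and 7.13, 8.89 and 9.04 CPM in KO, and C3ar1 had 1.999, 2.38 and 2.61 CPM in WT and 3.25, 3.56 and 3.77 CPM in KO. The groups did not overlap for either gene, as for 13.5% of all genes in the CL table (6.77% lower and 6.70% higher in KO). The difference was -0.46 for C4b (-0.88 to -0.04, unadjusted p = 0.0338, adjusted p = 0.825) and 0.60 for C3ar1 (0.15 to 1.06, unadjusted p = 0.0137, adjusted p = 0.781) in the moderated trimmed-mean test. C1qc also did not overlap, at 10.1 to 11.3 CPM in WT and 11.4 to 12.3 CPM in KO, with a difference of 0.14 (-0.08 to 0.37). C1qa, C1qb and Serping1 overlapped, at -0.03 (-0.30 to 0.23), 0.18 (-0.07 to 0.44) and 0.17 (-0.39 to 0.73). Beside this, all 12 microglia markers had a difference above 0 in CL KO, none called. Their median was 0.18, beside -0.002 for the median gene. The markers were measured in the same libraries, so their signs are not independent. Their sum was 189 to 215 CPM in KO against 182 to 192 CPM in WT, and the part of microglia was not tested.

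**Figure D4:**
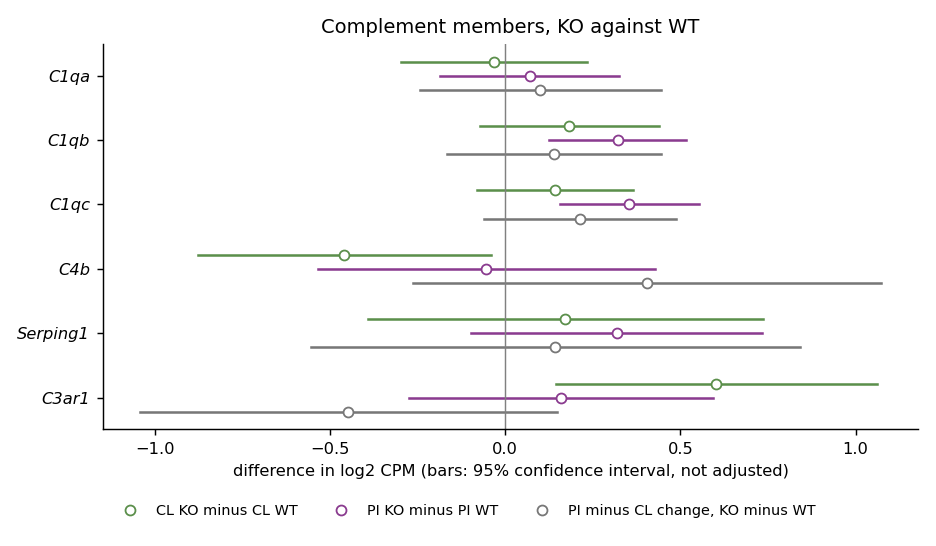
Difference between KO and WT (log2, mean of the 4 inner values) for the 6 genes, within CL and within PI. The difference of the PI minus CL change between KO and WT (the interaction) is drawn beside them, and bars are unadjusted 95% confidence intervals. The deposited values, not drawn, do not overlap between WT and KO for C1qb and C1qc in PI and C3ar1, C4b and C1qc in CL. None of the 6 genes was called in either side or in the interaction.

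None of the other complement genes listed was called between genotypes in either side, at 22 in PI and 21 in CL. Before adjustment, 2 of them in PI and 2 in CL had a p under 0.05 in the moderated trimmed-mean test, beside 5.75% and 5.73% of all genes.

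The last question was whether the PI minus CL difference itself differed between KO and WT. None of the 6 genes was called in this interaction, and neither was any of 14211 genes (0.00%, moderated trimmed-mean test, smallest adjusted p 0.992). At an unadjusted p under 0.05 none of the 6 passed, beside 646 genes in all (4.55%). The difference of differences was 0.10 for C1qa (95% interval, unadjusted, -0.24 to 0.45), 0.14 for C1qb (-0.17 to 0.44), 0.21 for C1qc (-0.06 to 0.49) and 0.14 for Serping1 (-0.55 to 0.84). For C4b, whose rise was 1.14 in WT and 1.55 in KO, it was 0.41 (-0.26 to 1.07), and for C3ar1, whose rise was 1.93 in WT and 1.48 in KO, it was -0.45 (-1.04 to 0.15). The intervals of C4b and C3ar1 hold both 0 and a difference of 1 on the log2 scale.

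Within groups the deposited values of most pairs of the 6 genes correlated little. At the median read number in CL WT, counting alone gives a standard deviation of 0.188 (log2) for C1qa and 0.308 for Serping1. A low correlation here thus cannot tell whether 2 genes vary apart. Over the deviations of 24 libraries from their group means (2 libraries from each animal), Pearson's r was 0.53 for C4b with Serping1 (Spearman's rho 0.47) and 0.43 for C1qa with C1qc (rho 0.38), and between -0.16 and 0.18 for the other pairs. The genes most like each member outside complement, among 11769, were Sh3gl1 (r 0.80), Slc35a4 (0.78) and Ppm1f (0.77) for C1qa, Zfp239 (0.79), Sidt1 (0.76) and Rpain (0.76) for C1qb, and Enpp4 (0.81), Kiz (0.75) and Kif21a (0.71) for C1qc. For C4b they were Npas3 (0.75), Txnip (0.75) and Mtg2 (0.73), for C3ar1 Plek (0.80), Skp2 (0.80) and Aen (0.79), and for Serping1 Sec14l2 (0.77), Lamb1 (0.77) and Pdpn (0.76). These are the highest of many, describe these libraries only, and rest on deposited values with tied ends.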

How the data were processed

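Per the labels' protocols, TRIzol RNA was treated with DNase and depleted of ribosomal RNA before CORALL library preparation. The authors deposited log2 CPM values per gene in 4 tables, each holding 2 groups. The build is mm10, per the submitters' processing notes. The aligner, counting, strand, annotation, filters and scaling are not given in the sources used here. In 100% of genes of each table the 2 lowest and the 2 highest of 6 deposited values were equal, at the group's quartiles (0.75 times the second lowest plus 0.25 times the next). The 4 inner values were solved from these, and the outermost cannot be. The deposited values were scaled per table: a library's values in 1 table stood a median of 0.0256 to 0.0364 (log2) from those in the other. All tests stayed within a table, except the interaction, which sets the changes of 2 tables against each other. No value column was left over (0 unused).

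The test took the trimmed mean of each group with the Winsorized sum of squares as error (6 degrees of freedom for 2 groups, 12 for 4) through the empirical Bayes step of limma 3.58.1 (R 4.3.3) with a trend. It was tested on simulated data. With the animal as a block, 3 degrees of freedom remain, and the prior degrees of freedom were held at those without the block, which was decided on simulated data. Depth is the step at which low inner values become whole reads within 0.05 read (80.8% to 90.8% whole, chance 10%). No count test was made, since most values are not whole reads.

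The titles give the animal, and the PI and CL libraries of 1 animal are paired by it. Their deviations from the group means had a median correlation across genes of 0.10 in both genotypes, against -0.04 (WT) and -0.02 (KO) for libraries of different animals. The ranges overlapped, at -0.03 to 0.25 against -0.29 to 0.18 in WT and -0.005 to 0.22 against -0.20 to 0.17 in KO. Of 6 PI libraries, 4 in WT and 3 in KO correlated best with the CL library of their own animal. Genes named are the members, the other complement genes that were called, their range otherwise, and the 3 most alike genes per member. The members, lists, rule and test were chosen with earlier results of these data known. Alternatives were limma on the deposited values, no trend, a minimum of 2 log2 CPM, centring on the median gene, log2(CPM + 1), the block, and leaving out each library. Results for some genes of the lists are not reported here.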

Additional observations from a re-analysis of the deposited data

How the results depend on the processing

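C1qa, C1qb, C1qc, C4b and C3ar1 were called higher in PI in both genotypes under each of 6 alternative settings and without each library in turn. Without 1 library at a time the members called ran from 5 to 5 in WT and from 5 to 6 in KO. The share of all genes called in these settings ran from 7.71% to 10.1% in WT and from 6.28% to 11.2% in KO. Serping1 in KO was lost with no trend in the prior variance (adjusted p = 0.0616) and with the replicate block (adjusted p = 0.0548). The replicate block changed no other call on a member, leaving 5 in each genotype. Between genotypes the animals share only a number, and 1 of 6 libraries per side correlated best with its own number. With the replicate block none of the 6 genes was called there. Limma on the deposited values, whose spread is understated by construction, called Serping1 in WT as well, 2 members in PI (C1qb, C1qc), 2 in CL (C4b, C3ar1) and 2 in the interaction (C1qc, C3ar1), and of the other complement genes 14 in WT, 15 in KO, 4 in PI and 5 in CL. Under that setting 44.6% of all genes were called in WT, 46.5% in KO, 16.5% in PI, 16.1% in CL and 13.7% in the interaction. Without 1 library at a time the difference of C1qa between the genotypes in CL ran from -0.077 to 0.012 and that of C4b in PI from -0.21 to 0.063, neither called. The other complement genes called without 1 library at a time ran from 6 to 7 in WT and from 5 to 7 in KO. The shares of all genes for these settings are those given above. With a minimum of 2 log2 CPM, C3ar1 and Serping1 gave no value in the table of the CL groups. As deposited value times depth, the lowest read number among the members was 11.0, for Serping1 in CL KO. Among the other complement genes it was 4.8, for C5ar1 in CL WT.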
